A study of Homo sapiens with 60 samples.

Results

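The 10 genes described here are direct transcriptional targets of the tumour suppressor p53: CDKN1A, BTG2, MDM2, BBC3, FAS, TP53INP1, TP53I3, SESN1, ZMAT3 and RRM2B. They were taken by gene symbol from the 60675 genes of the deposited table, all 10 were found, and all 10 were among the 16675 genes that passed the filter on low counts and were tested. They were followed in HepG2, an established human liver cancer line, after 24 h with the ethanol extract of a plant drug or of a formula of several drugs, or with DMSO alone. Coptidis Rhizoma, a goldthread rhizome rich in the alkaloid berberine, was given at 11.2, 56 and 280 µg/mL with 2 libraries per dose. Aconiti Lateralis Radix Preparata, a processed aconite root, was given at 20, 100 and 500 µg/mL with 3 libraries per dose, and Bupleuri Radix, a root rich in saponins, at 11.2, 56 and 280 µg/mL with 3 per dose. Zizyphi Fructus (2 libraries per dose), Citri Unshius Pericarpium and Cimicifugae Rhizoma (3 per dose each) and the formulas Yijung-tang (2 per dose) and Banhasasim-tang (1 per dose) were given at 20, 100 and 500 µg/mL. The vehicle group, labelled 0.1% DMSO, had 3 libraries, which makes 60 libraries in 25 groups. The 3 doses of an extract are called low, medium and high below. By the dose rule in the series' design text, Coptidis and Bupleuri had their top dose set at the IC20, the concentration that inhibits growth by a set fraction, so the doses of the extracts are not matched in mass.

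The p53 protein is kept low by MDM2, a ubiquitin ligase whose own gene p53 activates. When p53 is stabilised it binds pairs of half-sites near its targets. Some of these targets halt the cell cycle, some promote apoptosis and some act in metabolism or DNA repair. CDKN1A encodes p21, which inhibits cyclin-dependent kinases and through the DREAM repressor complex silences cell cycle genes, but CDKN1A also responds to p53-independent stress pathways. In liver cells p53 targets are known to respond to DNA damage, nucleolar stress and metabolic stress.

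Library totals ran from 18015555 to 29549531 expected counts, and levels are given as TMM-scaled CPM, counts relative to library size, which compare 1 gene between libraries and not different genes. All 7 hepatocyte markers were present in each library, with ALB between 7350 and 12000 CPM, while PTPRC was at 0 in all 60 libraries, CD3E in 58 and COL1A2 in 56. LYZ (516 to 1650 CPM) and ACTA2 (28.7 to 63.1 CPM), listed as markers of other cell types, were present in each library. The other markers on that list, PECAM1 (1.89 to 4.71 CPM), COL1A1 (0.156 to 3.14 CPM) and VWF (0.251 to 1.51 CPM), were low but above 0 in each library. Replicate 3 of the Bupleuri low dose stood apart: its deviation from vehicle followed transcript length across 10676 genes with a Spearman correlation of -0.677, against -0.26 to 0.21 in the other libraries. The library of the Banhasasim-tang low dose stood apart as well, with 30.0% of all tested genes higher and 30.7% lower than vehicle by over 1.5-fold. The titles put the extracts into 4 numbered sets and the vehicle into another, so extract and set cannot be told apart against vehicle, whereas the doses of 1 extract share a set. The titles and descriptions of Coptidis and Zizyphi also name different batches, D and C, so whether they were run with the others is uncertain. Whether the libraries of a group came from separate cultures is not labelled, and the spread behind each p-value may be technical. The RNA came from whole cultures, in which fewer expressing cells and less RNA per cell cannot be told apart.

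Sequences are shown for the 3 members whose RefSeq promoter windows (build GRCh38.p14) held a p53 site, because these 3 had unlike responses: MDM2 and FAS rose with the high doses of both Coptidis and Aconiti, while SESN1 fell with Coptidis and rose with Aconiti. The search took the 250 bases before each start and the p53 consensus, a pair of half-sites with no gap, allowing 3 mismatches in its 20 bases and requiring the C and G of each half-site core (CNNG). The consensus reads the same on both strands. Of the 10 members 8 had a window (16 windows in all), while TP53INP1 and RRM2B had none. A match was present in 0.914% of all 35116 windows and in 1.12% of the 27305 genes. The capitals mark the 20 bases of the match, each with 5 flanking bases on either side, 5′ to 3′ on the strand of the gene.
MDM2, chr12:68808918-68808947, plus strand, 2 mismatches: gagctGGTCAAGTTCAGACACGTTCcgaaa
FAS, chr10:88991304-88991333, plus strand, 2 mismatches: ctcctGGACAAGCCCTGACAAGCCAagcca
SESN1, chr6:109009013-109009042, minus strand, 3 mismatches: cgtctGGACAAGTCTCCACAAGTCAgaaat
In GENCODE release 29 the MDM2 and SESN1 matches lie in introns, before an internal start of the gene. The FAS match lies in a non-coding exon of an alternative transcript. The windows of CDKN1A, BBC3, BTG2, ZMAT3 and TP53I3 held no match, which says only that these letters are not in these windows.

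The high dose of Coptidis gave the largest CDKN1A level of the 25 groups, and 9 of the 10 targets rose against vehicle while SESN1 fell. The arrest gene CDKN1A rose 8.0-fold, the apoptosis gene BBC3 3.73-fold, the oxidoreductase gene TP53I3 2.61-fold and the nucleotide-supply gene RRM2B 2.35-fold. The response was wide: 34.5% of all tested genes were called higher and 33.0% lower in this comparison (edgeR, adjusted p under 0.05), so 9 of 10 rising and 1 falling has to be read against 67.5% of genes called.

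CDKN1A (chr6:36676460-36687339, plus strand) stood at 758 and 758 CPM in the high-dose Coptidis libraries, against 96.5, 95.0 and 93.1 CPM in the vehicle libraries. The groups did not overlap, and the log2 fold change was 3.00 ± 0.05 (SE, edgeR adjusted p 2.58e-39). The dose series was graded, with 103 and 112 CPM at the low dose and 215 and 204 CPM at the medium dose. Each step lay above the one before and above vehicle, and the medium dose differed from vehicle by 1.15 ± 0.05 (edgeR adjusted p 3.31e-23). The low-dose difference was small, at 0.19 ± 0.05 (edgeR adjusted p 0.00511), and was not called without low-dose replicate 3 (adjusted p 0.215) or with offsets for GC content and transcript length (0.324).

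BTG2, an antiproliferative gene of the same arrest arm, behaved differently. It had 26.1 and 25.1 CPM at the high dose of Coptidis, against 22.6, 23.8 and 21.4 CPM in vehicle. The libraries did not overlap, but the change of 0.18 ± 0.07 (edgeR adjusted p 0.0237) was no longer called without vehicle replicate 3 (0.104), without Coptidis high replicate 2 (0.176) or 3 (0.0507), in a fit of Coptidis and vehicle alone (0.0887) or with no filter on low counts (0.185). At the low and medium doses BTG2 was below vehicle, by -0.49 ± 0.07 and -0.73 ± 0.08 (edgeR adjusted p 1.31e-06 and 3.75e-11). High over low dose it rose by 0.67 ± 0.08 (edgeR adjusted p 1.18e-09).

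MDM2 (chr12:68808176-68850686, plus strand), the feedback ligase, had 583 and 556 CPM at the high dose of Coptidis, against 340, 344 and 340 CPM in vehicle. Both high-dose libraries were above all vehicle libraries, a change of 0.74 ± 0.05 (edgeR adjusted p 2.22e-16). The low dose lay under vehicle, at 281 and 250 CPM (-0.36 ± 0.06, edgeR adjusted p 1.9e-06), and the medium dose, at 307 and 346 CPM, overlapped it. The low dose of Coptidis was thus under vehicle for MDM2 and over it for CDKN1A, by the small and unstable difference given above. The MDM2 difference was not particular to Coptidis, because every other low-dose group also had a mean under that of vehicle (341 CPM). The low dose of Zizyphi, from the same set, had 276 and 301 CPM and overlapped that of Coptidis. Over all 10 members, 4 rose and 3 fell at the medium dose, where 50.7% of all tested genes were called, and 2 rose and 4 fell at the low dose, where 33.2% were.

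Among the apoptosis genes, BBC3, which encodes the BH3-only protein PUMA, had 25.9 and 26.9 CPM at the high dose of Coptidis, against 7.07, 7.02 and 7.21 CPM in vehicle. It was higher at every step of the series, with 9.26 and 10.3 CPM at the low and 11.5 and 12.4 CPM at the medium dose. The changes were 0.46, 0.76 and 1.90 from low to high dose, each called by edgeR, but the low-dose change was -0.04 (adjusted p 0.845) with offsets for GC content and length. FAS (chr10:88990582-89015785, plus strand), a death receptor, had 29.6 and 32.1 CPM at the high dose of Coptidis, against 19.8, 20.2 and 19.1 CPM in vehicle, a rise of 0.65 ± 0.07 (edgeR adjusted p 1.77e-11). Its groups did not overlap. FAS shares 380 exon bases with ACTA2 on the opposite strand, and the sources used here do not say whether counting used strand, so its values are uncertain by that overlap. The same holds for CDKN1A (146 bases shared with DINOL), TP53I3 (80 with FAM228B) and BBC3 (80 with MIR3190). It also holds for MDM2 (133 with the gene CPM and 785 with an antisense gene) and SESN1 (363 with an antisense gene). On the same strand, MDM2 shares 439 exon bases with a processed pseudogene and BBC3 76 with MIR3191, overlaps that counting by strand would not separate. TP53INP1, a stress protein that promotes p53 phosphorylation and autophagy, had 53.3 and 50.7 CPM at the high dose of Coptidis, against 29.9, 28.98 and 33.0 CPM in vehicle. All high-dose libraries exceeded vehicle, by 0.77 ± 0.08 (edgeR adjusted p 2.92e-12).

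The metabolic and repair targets split. TP53I3, a quinone oxidoreductase linked to oxidative stress, had 79.1 and 78.4 CPM at the high dose of Coptidis, against 29.5, 32.1 and 29.2 CPM in vehicle (1.38 ± 0.08, edgeR adjusted p 8.26e-20). RRM2B, the p53-inducible ribonucleotide reductase subunit, had 118 and 117 CPM at the high dose, against 51.9, 47.4 and 51.9 CPM in vehicle (1.23 ± 0.08, edgeR adjusted p 1.09e-17). ZMAT3, an RNA-binding regulator of splicing, had 106 and 103 CPM at the high dose, against 72.7, 70.4 and 72.3 CPM in vehicle (0.54 ± 0.06, edgeR adjusted p 4.56e-11). In these genes the high-dose libraries lay above all vehicle libraries, and of these 3 only TP53I3 was also called above vehicle at the medium dose (0.54 ± 0.08, edgeR adjusted p 4.07e-07). SESN1, a sestrin that restrains mTORC1 signalling, had 27.6 and 26.2 CPM at the high dose, against 46.0, 44.4 and 43.9 CPM in vehicle. It was the 1 member that fell, with a change of -0.74 ± 0.06 (edgeR adjusted p 6.22e-14), and it was lower at the low and medium doses too (32.4 and 32.9, then 21.98 and 25.1 CPM).

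**Figure D1:**
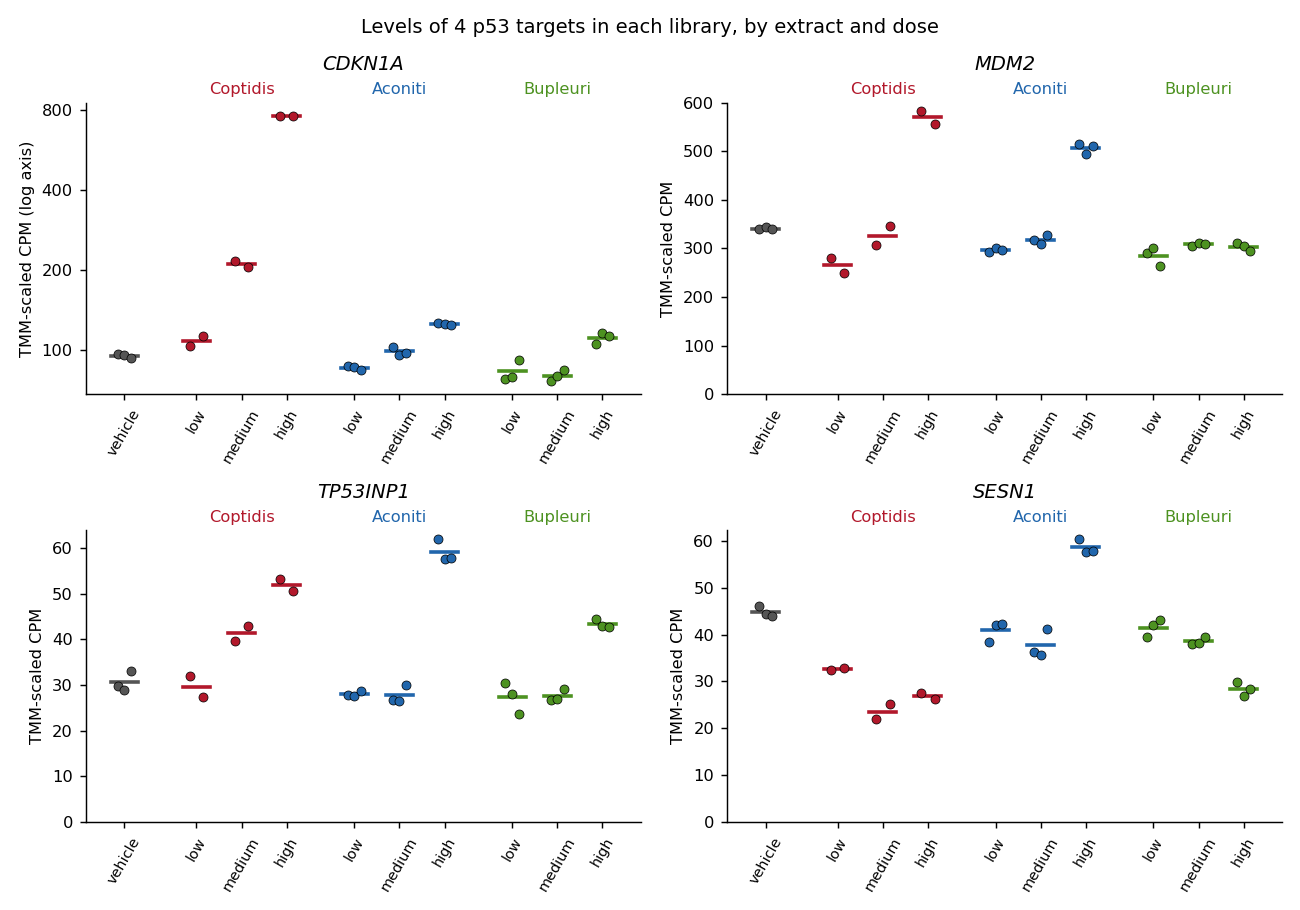
Level of CDKN1A (log axis), MDM2, TP53INP1 and SESN1 in TMM-scaled CPM. Each point is 1 library and each bar the group mean. Vehicle is drawn once in each panel, to the left of the dose series. CDKN1A reached 758 CPM with the high dose of Coptidis, and SESN1 was highest with the high dose of Aconiti (57.7 to 60.3 CPM) and under vehicle with the high doses of Coptidis and Bupleuri.

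High against low dose of Coptidis, which does not use the vehicle libraries, gave the same directions for all 10 members, with 60.2% of all tested genes called. CDKN1A rose by 2.82 ± 0.06, RRM2B by 1.49 ± 0.09, BBC3 by 1.44 ± 0.10 and MDM2 by 1.10 ± 0.06, while SESN1 fell by 0.28 on the log2 scale (SE 0.07, edgeR adjusted p 0.000581). Set against the high dose of Zizyphi, which shares the set of Coptidis in the titles but was given at 500 µg/mL, 9 members were higher and SESN1 lower (64.4% of all tested genes called). Set against the high dose of Bupleuri at the same 280 µg/mL, 9 members were higher with Coptidis (61.9% of all tested genes called) and SESN1 differed by -0.07 and did not pass. These extracts belong to different sets, so extract and set cannot be told apart in this comparison either. In that comparison CDKN1A was 758 and 758 CPM with Coptidis, against 104, 115 and 112 CPM with Bupleuri, a difference of 2.78 on the log2 scale. Mitochondrial ribosomal RNA made up 5.41 to 5.68% of counts at the high dose of Coptidis, 10.2 to 11.8% at its other doses and 2.47 to 2.61% in vehicle, and its part in these results was not tested.

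The high dose of Aconiti raised all 10 members together, each by a modest amount. Against vehicle the changes ran from 0.39 for CDKN1A and SESN1 to 0.97 for BBC3, with a median of 0.50, and all 10 were called higher where 11.2% of all tested genes were called higher and 12.0% lower, 23.2% in all (edgeR, adjusted p under 0.05). Against the low dose of the same extract the changes ran from 0.47 for FAS to 1.08 for TP53INP1, with a median of 0.53, and again all 10 were called higher, where 6.77% of all tested genes were called higher, 7.83% lower and 14.6% in either direction. The median of all tested genes was 0.02 against vehicle and 0.01 against the low dose. These comparisons share the high-dose libraries. Mitochondrial ribosomal RNA made up 3.41 to 3.51% of counts at the high dose of Aconiti, against 2.58 to 2.73% at its low dose and 2.47 to 2.61% in vehicle, and its part was not tested. All 10 remained called higher without any 1 library of the groups compared, without replicate 3 of the low dose of Bupleuri, and under each other setting tried.

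CDKN1A had 126, 125 and 123 CPM at the high dose of Aconiti, against 96.5, 95.0 and 93.1 CPM in vehicle and 86.6, 86.0 and 83.9 CPM at the low dose. The high-dose libraries lay above all others of the extract, 0.55 ± 0.05 above the low dose (edgeR adjusted p 2.79e-12). MDM2 had 515, 494 and 510 CPM at the high dose of Aconiti, against 340, 344 and 340 CPM in vehicle and 292, 302 and 297 CPM at the low dose. Its rise of 0.77 ± 0.05 over the low dose (edgeR adjusted p 2.09e-16) exceeded that of CDKN1A, the reverse of the order with Coptidis. TP53INP1 had 62.0, 57.7 and 57.7 CPM at the high dose, against 29.9, 28.98 and 33.0 CPM in vehicle and 27.8, 27.7 and 28.8 CPM at the low dose. This was its highest level of the 25 groups, 1.08 ± 0.07 above the low dose (edgeR adjusted p 1.14e-16). SESN1 had 60.3, 57.7 and 57.8 CPM at the high dose, against 46.0, 44.4 and 43.9 CPM in vehicle and 38.5, 42.0 and 42.2 CPM at the low dose. Aconiti at the high dose was the only one of the 25 groups whose libraries all lay above vehicle for SESN1 (0.39 ± 0.05 against vehicle, edgeR adjusted p 2.33e-07).

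The other members had the same form. BBC3 had 14.0, 14.0 and 13.9 CPM at the high dose of Aconiti, against 7.07, 7.02 and 7.21 CPM in vehicle and 8.53, 8.82 and 9.09 CPM at the low dose. Its change against vehicle of 0.97 ± 0.09 was 0.60 with offsets for GC content and length, and still called. FAS had 28.6, 26.1 and 27.1 CPM, against 19.8, 20.2 and 19.1 CPM in vehicle, and BTG2 had 34.7, 30.4 and 30.7 CPM, against 22.6, 23.8 and 21.4 CPM in vehicle. For both genes the high-dose libraries lay above each vehicle library, by 0.47 ± 0.06 and 0.50 ± 0.06 (edgeR adjusted p 9.56e-08 and 2.91e-08). ZMAT3 had 107, 97.7 and 98.9 CPM, TP53I3 44.0, 45.7 and 43.5 CPM and RRM2B 72.4, 62.4 and 64.1 CPM at the high dose. Their vehicle libraries reached at most 72.7, 32.1 and 51.9 CPM, so no group overlapped.

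At 100 µg/mL of Aconiti no member was called higher than vehicle by edgeR (0 at an unadjusted p under 0.05 and 0 by DESeq2), and BTG2 (-0.38 ± 0.06) and SESN1 (-0.24 ± 0.05) were called lower, where 20.9% of all tested genes were called. CDKN1A (95.8 to 102 CPM) and MDM2 (310 to 327 CPM) at this dose nevertheless lay above all their low-dose libraries, a step that was not tested. At 20 µg/mL BBC3 was called higher (0.31) and CDKN1A (-0.15) and MDM2 (-0.20) lower, where 9.89% of genes were called. In a comparison chosen after these values were seen, high over medium dose gave all 10 members higher, by 0.34 for CDKN1A to 1.09 for TP53INP1, where 9.84% of all tested genes were called higher, 10.3% lower and 20.2% in all. BTG2 had 34.7, 30.4 and 30.7 CPM at the high dose, against 16.2, 18.7 and 17.0 CPM at the medium dose.

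**Figure D2:**
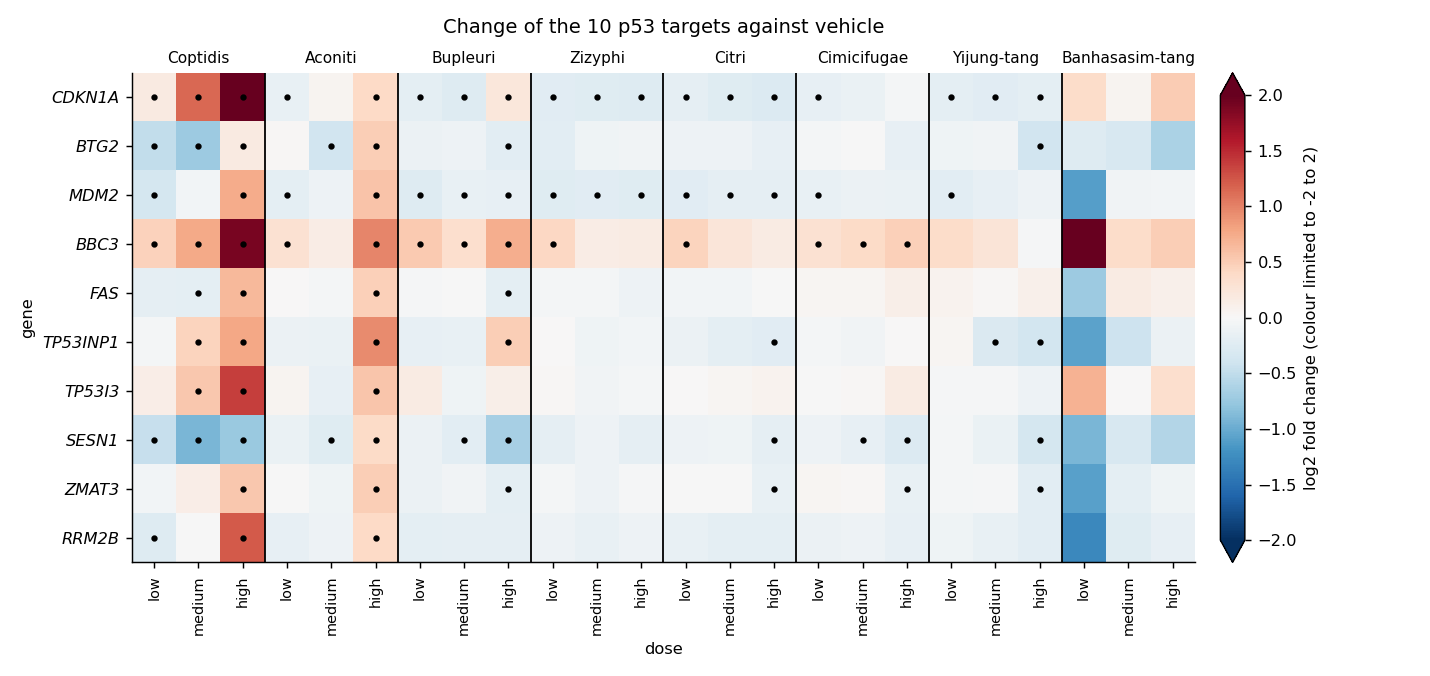
Log2 fold change of each member (rows) against vehicle for each extract and dose (columns, low to high), in colour; dots mark adjusted p under 0.05 in edgeR, and Banhasasim-tang has 1 library per dose and no test. With the high dose of Aconiti all 10 members are higher, with the high dose of Coptidis 9 are higher and SESN1 is lower.

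The high dose of Bupleuri moved the members in both directions. Against vehicle, TP53INP1 (0.50 ± 0.07), BBC3 (0.73 ± 0.09) and CDKN1A (0.22 ± 0.05) rose and MDM2, FAS, BTG2, SESN1 and ZMAT3 fell, where edgeR called 19.9% of all tested genes higher and 19.1% lower (38.9% in all). The first 3 of these and ZMAT3 were at -0.17 to -0.21, and SESN1 was at -0.66 ± 0.05 (edgeR adjusted p 1.04e-13). The smaller falls were less stable than that of SESN1: with the offsets FAS was at -0.03 (adjusted p 0.772) and MDM2 was not called (0.0749), FAS was not called without vehicle replicate 2 (0.0552), and 2 to 6 members were lower over all settings. SESN1 had 29.8, 26.8 and 28.4 CPM at the high dose of Bupleuri, against 46.0, 44.4 and 43.9 CPM in vehicle and 39.5, 42.0 and 43.0 CPM at the low dose. CDKN1A had 104, 115 and 112 CPM at the high dose, against 96.5, 95.0 and 93.1 CPM in vehicle and 77.4, 79.1 and 91.5 CPM at the low dose. In both genes the high-dose libraries overlapped neither vehicle nor the low dose. At the low and medium doses of Bupleuri edgeR called 3 and 4 members against vehicle, where it called 22.3% and 10.9% of all tested genes. CDKN1A (-0.20 and -0.25) and MDM2 (-0.26 and -0.15) were lower at both, BBC3 (0.53 and 0.33) was higher at both, and SESN1 was lower at the medium dose (-0.22). With offsets for GC content and length the BBC3 values were 0.04 and -0.03 and the MDM2 values -0.003 and -0.11, none of them called. The MDM2 call at the medium dose was also lost without any 1 of its own or the vehicle libraries (edgeR adjusted p 0.0889 to 0.132), and the CDKN1A calls were lost in a fit of Bupleuri and vehicle alone (0.14 and 0.111).

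High over low dose of Bupleuri, 40.2% of all tested genes were called. CDKN1A (0.42 ± 0.05) and TP53INP1 (0.66 ± 0.07) rose and SESN1 (-0.55 ± 0.05) and FAS (-0.17 ± 0.06) fell. The other 6 members lay between -0.10 and 0.20 and did not pass. Low-dose replicate 3 bears on this: it had 12.5 CPM of BBC3 where the other low-dose libraries had 8.31 and 10.1 CPM, and 57.5 CPM of ZMAT3 where the others had 70.0 and 71.6 CPM. Without it BBC3 rose by 0.35 (edgeR adjusted p 0.000874), ZMAT3 fell by 0.17 on the log2 scale (0.00278) and FAS was not called (0.096). With offsets for GC content and length, the BBC3 change against vehicle was 0.29 in place of 0.73.

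**Figure D3:**
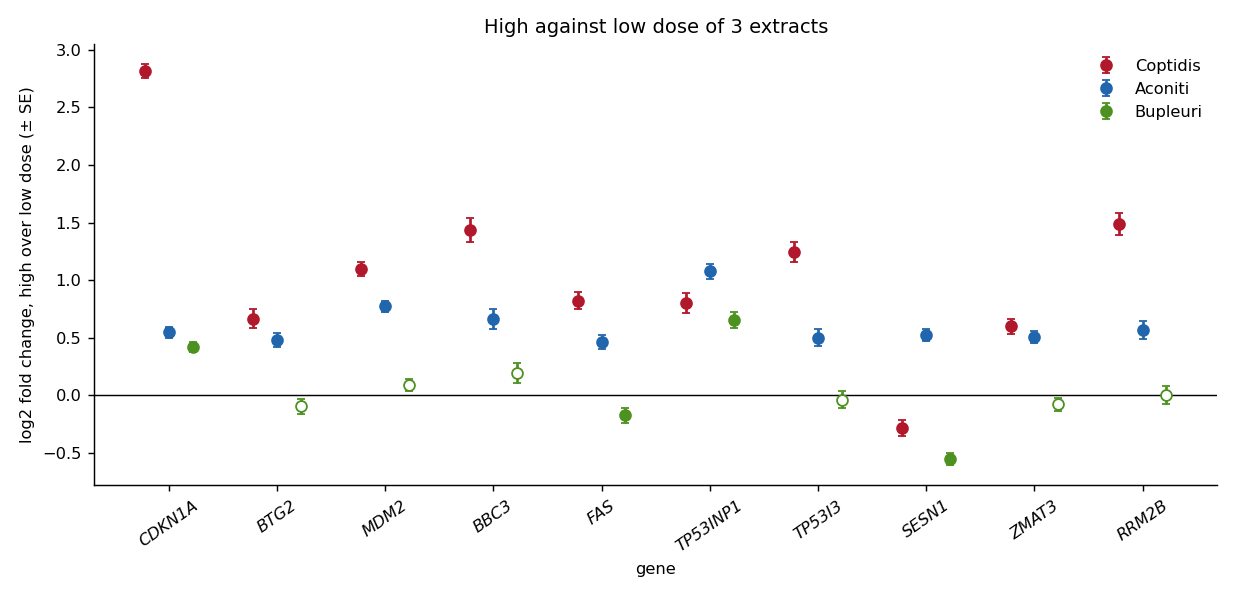
Log2 fold change of each member, high over low dose, with SE from edgeR, for Coptidis (2 libraries per dose), Aconiti and Bupleuri (3 per dose each); filled points passed adjusted p under 0.05. Aconiti values lie between 0.47 and 1.08, Coptidis values between -0.28 and 2.82 and Bupleuri values between -0.55 and 0.66.

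The dose effects of the extracts were then tested against each other, in comparisons chosen after the values were seen. The rise of CDKN1A over the low dose was smaller with Aconiti than with Coptidis, a log2 difference of -2.27 ± 0.07 (SE, edgeR adjusted p 6.33e-28), and SESN1 differed by 0.80 ± 0.09 the other way (adjusted p 1.21e-10). TP53I3, RRM2B, BBC3, FAS and MDM2 rose less with Aconiti, BTG2 (-0.19) and ZMAT3 (-0.09) did not pass, and MDM2 was not called with offsets for GC content and length (-0.07, edgeR adjusted p 0.583). TP53INP1 rose more with Aconiti (0.27), but leaving out any 1 of 5 libraries ended that call (edgeR adjusted p 0.0523 to 0.334): Coptidis low replicate 2, Coptidis high replicate 3, Aconiti high replicate 1 or Aconiti low replicate 1 or 2. In all, 8 of 10 members differed, where 50.1% of all tested genes did. Between Aconiti and Bupleuri, which share a set in the titles, 9 of 10 members rose more with Aconiti, where 11.4% of all tested genes were higher, 12.9% lower and 24.4% called in all. SESN1 was farthest apart (1.07 ± 0.08), and CDKN1A did not pass (0.13 ± 0.07, edgeR adjusted p 0.167).

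The 28 other p53 targets, a list of textbook targets without the 10 members, were read in the same fits. High over low dose of Aconiti, 22 of 28 rose and 0 fell (median 0.33), their lowest value being 0.01, and 24 rose and 0 fell at an unadjusted p under 0.05, as did 22 and 0 by DESeq2. Of all tested genes 6.77% rose and 7.83% fell in that comparison. Against vehicle 18 rose and 0 fell (median 0.27), with 22 and 0 at an unadjusted p under 0.05 and 18 and 0 by DESeq2. High over low dose of Coptidis, 20 rose and 4 fell (median 0.49), where 30.9% of all tested genes rose and 29.3% fell, and against vehicle 16 rose and 7 fell (median 0.31). With Bupleuri 8 rose and 12 fell over the low dose (median -0.15), where 20.2% of all tested genes rose and 20.0% fell, or 6 and 14 without low-dose replicate 3, and 6 rose and 14 fell against vehicle. Against vehicle 11.2% of all tested genes rose and 12.0% fell with the high dose of Aconiti. These shares were 34.5% and 33.0% with Coptidis and 19.9% and 19.1% with Bupleuri.

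The 5 of these targets with the largest change at the high dose of Coptidis were GDF15, PMAIP1, SESN2, PLK3 and PLK2. GDF15, a secreted stress cytokine, averaged 3111 ± 300 CPM at the high dose of Coptidis and 138 ± 8.51 CPM in vehicle (SD, n = 2 and 3), a change of 4.49. It rose by 2.09 with the high dose of Bupleuri and by 0.87 with that of Aconiti. PMAIP1, which encodes the BH3-only protein NOXA, rose by 3.18 with Coptidis, and stood at 0.04 with Aconiti and -0.31 with Bupleuri, neither of which passed. SESN2, a sestrin that ATF4 also activates, rose by 3.07 with Coptidis, 0.50 with Aconiti and 0.31 with Bupleuri. PLK3, a polo-like kinase, rose by 2.53, 0.56 and 0.98 in the same order of extracts, and PLK2 rose by 2.13 with Coptidis and 0.52 with Aconiti and was at -0.09 with Bupleuri. These are all changes of the high dose against vehicle in edgeR. The targets that fell with Coptidis over the low dose, named after their values were seen, were SPATA18 (-0.63), FDXR (-0.54), NINJ1 (-0.44) and CCNG1 (-0.32). SPATA18, a mitochondrial quality control gene, and FDXR, a mitochondrial ferredoxin reductase, rose with Aconiti by 0.37 and 0.40.

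**Figure D4:**
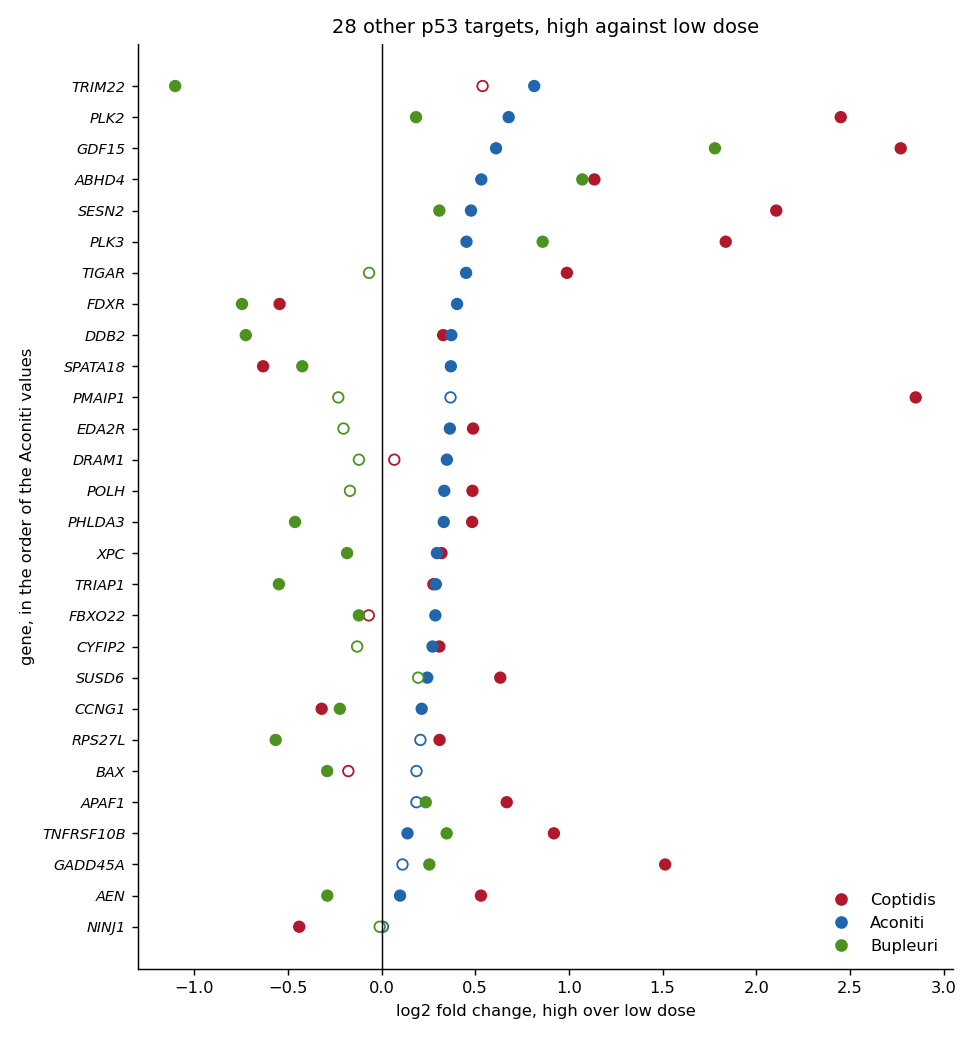
Log2 fold change of the 28 other p53 targets, high over low dose, for Coptidis, Aconiti and Bupleuri; filled points passed adjusted p under 0.05 in edgeR. The Aconiti points run from 0.01 to 0.81, while Coptidis points run from -0.63 to 2.85 and Bupleuri points from -1.10 to 1.78.

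Regulators of the pathway and genes downstream of the members were read in the same fits. MDM4, an MDM2 relative that inhibits p53, was at 0.18 with the high dose of Coptidis against vehicle (edgeR adjusted p 0.0416), 0.07 with Aconiti and 0.04 with Bupleuri, of which the last 2 did not pass. PPM1D, a p53-induced phosphatase that switches the response off, rose by 0.22 with Coptidis and fell by 0.52 on the log2 scale with Bupleuri, and with Aconiti it was at 0.05 against vehicle and rose by 0.28 over the low dose. Over 14 regulators of p53, 6 rose and 4 fell with Coptidis, 0 rose and 5 fell with Aconiti, and 0 rose and 5 fell with Bupleuri against vehicle, the same counts at an unadjusted p under 0.05. DESeq2 called 0 of them higher with Aconiti or Bupleuri. Of all tested genes 34.5% rose and 33.0% fell with the high dose of Coptidis against vehicle in edgeR. The shares were 11.2% and 12.0% with Aconiti and 19.9% and 19.1% with Bupleuri.

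The 18 cell cycle genes that DREAM represses all fell at the high dose of Coptidis, with a median of -2.28. Against vehicle 33.0% of all tested genes fell with Coptidis, 19.1% with Bupleuri and 12.0% with Aconiti at that dose, while 34.5%, 19.9% and 11.2% rose. CCNA2 (-3.01), BIRC5 (-2.84) and CENPA (-2.79), which act in S phase entry, mitotic survival and the centromere, changed most. With the high dose of Bupleuri 16 of 18 fell (median -0.55) and with that of Aconiti 12 of 18 (median -0.29). CCNA2 (-0.32 ± 0.04) and BIRC5 (-0.46 ± 0.06) fell with Aconiti against vehicle, while CENPA was at -0.04 and did not pass. The partners of p21 were CDK2 (-1.57), PCNA (-1.55) and CCNE2 (-1.55) among 5 of 8 that fell at the high dose of Coptidis, with 1 rising. With Aconiti 2 of 8 fell and 1 rose, with CDK2 at -0.20 ± 0.04. Of the 7 other genes listed as CDK inhibitors by their CDKN symbols alone, 6 were tested. Among these CDKN2B rose by 3.46 with Coptidis while CDKN2C (-3.15) and CDKN3 (-2.01) fell. CDKN2B fell with Aconiti (-0.70 ± 0.12) and rose with Bupleuri (0.87 ± 0.10).

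The 8 targets of ATF4 and CHOP, transcription factors of the integrated stress response, all rose at the high dose of Coptidis (median 3.16), with PPP1R15A at 4.14, ATF3 at 3.71 and VLDLR at 3.60. With Bupleuri 7 of 8 rose (median 0.86), and with Aconiti 3 rose and 1 fell (median 0.18). Of all tested genes 34.5% rose with Coptidis, 19.9% with Bupleuri and 11.2% with Aconiti, and 12.0% fell with Aconiti. CDKN1A, BBC3 and SESN2 are known to respond to ATF4 and CHOP as well as to p53. The part of these factors or of p53 in the changes above was not tested. The summed level of the 7 hepatocyte markers was 15700 to 16300 CPM at the high dose of Coptidis, 18600 to 20000 CPM at that of Bupleuri, 24000 to 24200 CPM at that of Aconiti and 23600 to 24500 CPM in vehicle.

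**Figure D5:**
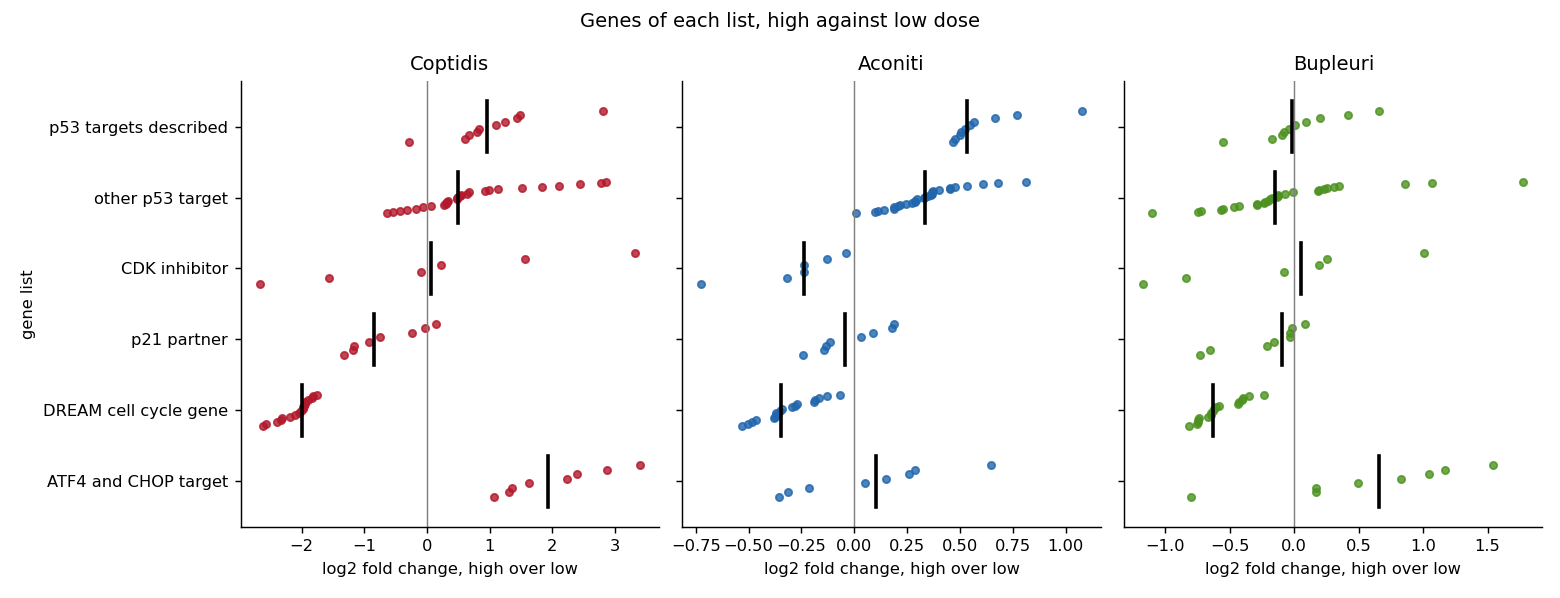
Log2 fold change, high over low dose, of each gene in the lists read beside the 10 p53 targets; each point is a gene, each black bar the median of its list, and the horizontal scale differs between panels. The median of the 18 DREAM cell cycle genes is -2.0 with Coptidis, -0.35 with Aconiti and -0.63 with Bupleuri, and that of the 10 targets 0.96, 0.53 and -0.02.

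Between the high and low doses of the other replicated extracts, edgeR called no member for Zizyphi and Citri. It called some members for Cimicifugae and Yijung-tang, all lower at the high dose. For Zizyphi none of the 10 was called between high and low dose in edgeR (1 lower at an unadjusted p under 0.05, 0 by DESeq2), where 1 of all tested genes was called (0.006%). Citri also had none (2 lower at an unadjusted p under 0.05, 0 by DESeq2), where 0.780% of genes were called. For Cimicifugae SESN1 (-0.17 ± 0.05) and ZMAT3 (-0.18 ± 0.05) were lower at the high dose, where 7.14% of genes were called, 736 higher and 455 lower. At an unadjusted p under 0.05, 2 members were higher and 2 lower, and DESeq2 called 0 higher and 2 lower. For Yijung-tang TP53INP1 (-0.41 ± 0.09), BBC3 (-0.39 ± 0.11), BTG2 (-0.30 ± 0.08) and SESN1 (-0.31 ± 0.07) were lower at the high dose, where 7.29% of genes were called, 663 higher and 552 lower. At an unadjusted p under 0.05, 0 members were higher and 5 lower, and DESeq2 called 0 higher and 4 lower. TP53INP1 had 23.5 and 23.7 CPM at the high dose of Yijung-tang, against 31.0 and 32.1 CPM at its low dose, groups that did not overlap.

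Against vehicle these extracts had small differences, at low doses as well as high. CDKN1A was called lower at each dose of Zizyphi (-0.23 to -0.26), Citri (-0.18 to -0.27) and Yijung-tang (-0.19 to -0.23) and at the low dose of Cimicifugae (-0.16). Apart from Citri, each of these calls was lost without 1 or more single libraries (highest edgeR adjusted p 0.113 to 0.386), and that at the low dose of Citri was lost with no filter on low counts (0.0826). The CDKN1A libraries of the first 2 extracts ran from 77.1 to 86.7 CPM, all under the lowest vehicle library at 93.1 CPM. MDM2 was lower at each dose of Zizyphi and Citri (-0.17 to -0.24), calls that were all lost with offsets for GC content and length (adjusted p 0.106 to 0.336). At the low, medium and high dose against vehicle, edgeR called 3, 2 and 2 members for Zizyphi, where it called 2.8%, 1.93% and 3.63% of all tested genes. For Citri it called 3, 2 and 5 members, where it called 15.9%, 10.5% and 14.2% of genes. For Cimicifugae it called 3, 2 and 3 members, where it called 6.1%, 10.7% and 22.2% of genes, and for Yijung-tang 2, 2 and 5 members, where it called 1.69%, 6.25% and 17.3%. BBC3 was called higher at the low doses of Zizyphi (0.41), Citri (0.45), Cimicifugae (0.31), Bupleuri, Aconiti and Coptidis, and at no low dose with those offsets. Each extract differs from vehicle in set as well, so extract and set cannot be told apart here.

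Banhasasim-tang had 1 library per dose, so its values have no replicate check. Mitochondrial ribosomal RNA made up 0.485, 8.01 and 11.8% of counts at its low, medium and high dose, against 2.47 to 2.61% in vehicle. Mitochondrial mRNA made up 0.585% of counts in the low-dose library, against 6.65 to 7.49% in vehicle. The part of these shares in the values below was not tested. CDKN1A was at 123, 98.9 and 135 CPM at the low, medium and high dose, against 93.1 to 96.5 CPM in vehicle. A gene was counted as past the rule when it differed from the vehicle mean by over 1.5-fold and lay beyond each vehicle library. At the high dose BTG2 was lower (14.6 CPM, log2 ratio -0.63), where 7.98% of genes were higher and 5.79% lower, and no other member was past the rule. SESN1 (29.9 CPM, -0.58) came just short. At the medium dose no member was past it, where 4.74% of genes were higher and 4.55% lower. In the low-dose library, the one that stood apart, BBC3 (31.5 CPM, 2.14) and TP53I3 (49.0 CPM, 0.70) were higher and MDM2, TP53INP1, FAS, SESN1, ZMAT3 and RRM2B lower, by -0.73 to -1.29. In that library 30.0% of all tested genes were higher and 30.7% lower by the same rule.

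Across the 25 group means CDKN1A ran from 78.5 CPM with the high dose of Citri to 758 CPM with that of Coptidis. The high dose of Coptidis and its medium dose each lay above all other groups, followed by the single Banhasasim-tang high-dose library, the high dose of Aconiti, the single Banhasasim-tang low-dose library and the high dose of Bupleuri. Libraries of the high dose of Bupleuri overlapped those of the low dose of Coptidis. From the vehicle downwards, neighbouring groups overlapped with 1 exception, the high and medium doses of Cimicifugae. For MDM2 the order was the high dose of Coptidis, the high dose of Aconiti and vehicle, none overlapping, and for SESN1 the high dose of Aconiti and then vehicle, with the medium dose of Coptidis last. For TP53INP1 the high dose of Aconiti came before that of Coptidis, and the libraries did not overlap.

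The members did not move as 1 block over the groups. Over the 45 pairs of members, Pearson's r of log2 group means ran from -0.56 to 0.95 with a median of 0.42, and from -0.66 to 0.98 with a median of 0.42 in the 22 groups without Coptidis. MDM2 and RRM2B had r = 0.95 and MDM2 and FAS 0.94 over the 25 groups, while CDKN1A had 0.91 with TP53I3, 0.54 with MDM2 and -0.56 with SESN1. Without Coptidis CDKN1A had 0.75 with TP53I3 and 0.05 with MDM2. The genes most like CDKN1A over the 25 groups, among 10540 with a mean of at least 5 CPM, were SOWAHC, CSRNP2, SPRED1, RNF19B and SMOX (r = 0.97 each). Without Coptidis they were ZNF792 (0.88), SESN2, PABPC1L, PHYKPL and CTSL (0.86 to 0.87). The groups share libraries of 1 cell line and the same scaling, and the first set of values rests largely on the Coptidis groups. Both sets of values include the single Banhasasim-tang low-dose library, which stood apart. Of the 25 groups it had the highest BBC3 (31.5 CPM) and the lowest MDM2 (158 CPM), ZMAT3 (33.8 CPM) and RRM2B (20.6 CPM). Its weight in these correlations was not tested.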

How the data were processed

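Whole-culture RNA-seq of HepG2 was deposited as a table of RSEM expected counts per gene, which the authors made with STAR 2.7.3a and RSEM 1.3.3 on GRCh38 after quality control in FastQC 0.11.9 and trimming in Trim Galore 0.6.5, per the submitters' processing notes. The annotation release and the strand setting of the counting are not given in the sources used here. Per the series' design text, libraries with too little RNA were left out. The table has 267 columns, of which 207 match no sample here and stayed unread. The expected counts (8.75% not whole) were rounded. Genes were filtered by edgeR's filterByExpr, which left 16675. The 57 libraries of the 22 groups with replicates were fitted together with edgeR 4.0.16 (R 4.3.3; TMM, robust quasi-likelihood, 35 residual degrees of freedom), with Benjamini-Hochberg adjustment within each comparison and a threshold of 0.05. The SE was derived from the log2 fold change and its F statistic. Banhasasim-tang was compared as log2 ratios with a prior count of 2. No replicate pair was within sampling noise (chi-square per degree of freedom of 2.09 to 99.4 over 48 pairs). The highest values, 99.4 and 94.3, were those of replicate 3 of the low dose of Bupleuri with the other libraries of its group. The next highest was 19.4, at the medium dose of Coptidis. Fits were tested on simulated data.

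The members and lists were chosen with earlier results of these data known. Named besides the members were MDM4, PPM1D and, from each list, the called genes with the largest change at the high dose of Coptidis (5 other p53 targets, 3 of the rest). Some results under this rule are not reported here. Patterns like CDKN1A were ranked by Pearson's r of log2(CPM + 1) group means. Alternatives were DESeq2 1.42.0, RLE scaling, no filter, a replicate block, separate fits of each extract with vehicle, and leaving out each library. Each library was left out only for the comparisons that used its group, except replicate 3 of the low dose of Bupleuri, left out for all. Chosen after seeing the data were offsets for GC content and length (a spline with 4 degrees of freedom), the high against the medium dose of Aconiti, and the differences of dose effects. The labels give 0.1% DMSO for the vehicle, while the series' design text gives 2%.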

Additional observations from a re-analysis of the deposited data

Results flagged for a closer look

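The effect of the high over the low dose differed between extracts for most members, by a test of the difference itself in edgeR (log2 scale, adjusted p under 0.05). Of all tested genes 50.1% differed between Aconiti and Coptidis and 24.4% between Aconiti and Bupleuri. These comparisons were chosen after the values were seen. Aconiti minus Coptidis was -2.27 for CDKN1A, -0.33 for MDM2, -0.77 for BBC3, -0.36 for FAS, -0.74 for TP53I3 and -0.92 for RRM2B, and it was 0.27 for TP53INP1 and 0.80 for SESN1. Of these, the MDM2 call was lost with offsets for GC content and length, and the TP53INP1 call without some single libraries. Aconiti minus Bupleuri was 0.68 for MDM2, 0.42 for TP53INP1, 0.47 for BBC3, 0.64 for FAS, 0.57 for BTG2, 1.07 for SESN1, 0.58 for ZMAT3, 0.54 for TP53I3 and 0.56 for RRM2B. The doses of Aconiti (20 and 500 µg/mL) were not those of Coptidis and Bupleuri (11.2 and 280 µg/mL). No group had the 4 libraries needed to look for a single library far from the others.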

How the results depend on the processing

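All 10 members stayed called higher at the high dose of Aconiti, against vehicle and against the low dose, under every setting run. Offsets for GC content and length changed the sign of 55 of 210 member values against vehicle. Of these, 49 were called neither with nor without the offsets, and 6 were called in one of the fits: BBC3 at the low doses of Coptidis (-0.0356), Cimicifugae (-0.0121) and Aconiti (-0.0819) and the medium dose of Bupleuri (-0.0292), and FAS (0.0633) and RRM2B (0.1503, edgeR adjusted p 0.0356) at the medium dose of Coptidis. The cause was not tested. The same offsets left 3 members called at the low dose of Coptidis (6 otherwise) and 1 each at the 3 doses of Zizyphi and Citri, at the medium and low doses of Cimicifugae, Bupleuri and Yijung-tang, at the low dose of Aconiti, and between high and low dose of Cimicifugae. With no filter, against vehicle, 0 were called at the medium dose of Zizyphi, 1 at the high and 1 at the medium dose of Citri, 1 at the medium and 0 at the low dose of Cimicifugae, 5 at the high and 2 at the medium dose of Bupleuri, 1 at the low dose of Aconiti and 3, 1 and 0 at the high, medium and low doses of Yijung-tang; between high and low dose, 0 for Cimicifugae and 2 for Yijung-tang. Separate fits called 4 at the medium dose of Citri, 7 and 4 at the high and medium doses of Cimicifugae, 5, 0 and 1 at the high, medium and low doses of Bupleuri, 5 and 5 at the medium and low doses of Aconiti and 5 at the medium dose of Yijung-tang, and between high and low dose 1 for Citri and 4 for Cimicifugae; comparisons across extracts have no separate fit. RLE scaling called 5 at the high and 1 at the medium dose of Cimicifugae.

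Leaving out 1 library gave these numbers of members called against vehicle at high, medium and low dose: 9 to 10, 6 to 8 and 4 to 7 for Coptidis, 0 to 3, 0 to 2 and 0 to 4 for Zizyphi, 1 to 6, 1 to 5 and 3 to 3 for Citri, 2 to 7, 1 to 4 and 0 to 3 for Cimicifugae, 8 to 9, 2 to 5 and 3 to 7 for Bupleuri, 10 to 10, 2 to 3 and 1 to 4 for Aconiti, and 3 to 6, 0 to 3 and 0 to 3 for Yijung-tang. Between high and low dose they were 10 to 10 for Coptidis and Aconiti, 0 to 0 for Zizyphi, 0 to 2 for Citri, 0 to 3 for Cimicifugae, 3 to 5 for Bupleuri and 1 to 5 for Yijung-tang. The replicate block left 326 member results on their side of the threshold and brought 4 past it; the numbers were not shown to pair the libraries. DESeq2 brought 2 past it and lost 0. BBC3 had the fewest counts of the members in vehicle, and its SE against vehicle was among the widest.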
